A study of Mus musculus with 72 samples.

Results

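Nr4a1 (Nur77), Nr4a2 (Nurr1) and Nr4a3 (Nor1) are the 3 mouse members of the NR4A subfamily of orphan nuclear receptors. They were found by symbol in the deposited gene table, where they make 3 of 55401 genes, and their 14 annotated transcripts make up that many of 119414 in the transcript table. NR4A proteins are transcription factors whose ligand-binding pocket is filled by bulky side chains, so their activity is set mainly by how much protein is made. Their genes are immediate early genes, transcribed within minutes of neuronal activity through cAMP and calcium signalling to CREB bound in their promoters. The proteins bind DNA as monomers at the NBRE motif, as dimers, or (Nr4a1 and Nr4a2) with the retinoid X receptors, and in rodent hippocampus they are known for a role in the consolidation of long-term contextual memory.

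Messenger RNA was sequenced from the hippocampus of male mice, its dorsal part (DH) and its ventral part (VH) in separate libraries. The labels assign the mice to C57BL_6J (6J) or C57BL_6NJ (6NJ), 2 inbred substrains, and give no transgene, allele or age. Mice came from the home cage, or were taken 30 minutes after a cue alone (label Cue) or after fear conditioning (label Shock_Cue), in which shock and cue were given, to ask how learning alters the hippocampal transcriptome. The 12 groups of region, substrain label and condition held 6 libraries each, 72 in all, and library codes were shared by DH and VH without a statement that a code is 1 animal. Nothing in the labels says whether the libraries of a group were separate animals, so p-values measure the spread between these libraries.

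Gene counts per library summed to between 30330382 and 56258370. The 3 genes were deeply covered: Nr4a1 had 1264 to 5355 reads in a library, Nr4a2 had 1030 to 4349, and Nr4a3 had 2438 to 6337. The libraries labelled 6NJ had less Nnt at 18.3 to 22.9 CPM (the read count scaled to the size of the library), against 34.3 to 44.1 in those labelled 6J, and less Gabra2 (91.1 to 159 against 220 to 330 CPM). Both genes are known to be reduced in C57BL/6J, so the labels run against these genes and 6J and 6NJ below mean the labels only. Lct and Wfs1 were higher in DH and Dcn, Trhr and Nr2f2 in VH, 5 genes known to mark these ends of the hippocampus. Ttr, a choroid plexus marker, ran from 8.95 to 8260 CPM, and 6 codes labelled 6J (4 cue, 2 home cage) had more than 2 CPM of Lcn2, a gene of the acute phase response, in both regions. The share of counts from mitochondrial genes in VH had a median of 8.22% (6.43 to 9.44) in the home cage, 7% (6.15 to 7.36) after cue and 7.07% (6.03 to 8.67) after shock and cue, against 6.55%, 6.15% and 6.79% in DH. Its part in the responses below was not tested.

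The promoters are shown because all 3 genes are described as CREB targets and all 3 moved in the data below. The stretches come from the RefSeq promoter table (GRCm38.p6), which holds 250 bases before to 50 bases after each gene's start, and all 3 members matched. Annotated exon sequence is left out, so the Nr4a3 stretch is shorter. Capitals mark the core of the cAMP response element, TGACG, on either strand (CGTCA when it lies on the other one), and sequences read 5′ to 3′ on the gene's strand.
Nr4a1, chr15:101266596-101266845, plus strand: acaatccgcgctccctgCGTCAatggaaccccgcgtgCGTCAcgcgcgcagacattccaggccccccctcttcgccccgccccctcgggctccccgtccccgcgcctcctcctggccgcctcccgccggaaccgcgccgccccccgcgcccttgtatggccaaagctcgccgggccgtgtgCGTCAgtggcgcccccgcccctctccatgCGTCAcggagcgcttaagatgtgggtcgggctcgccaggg
Nr4a2, chr2:57124004-57124253, minus strand: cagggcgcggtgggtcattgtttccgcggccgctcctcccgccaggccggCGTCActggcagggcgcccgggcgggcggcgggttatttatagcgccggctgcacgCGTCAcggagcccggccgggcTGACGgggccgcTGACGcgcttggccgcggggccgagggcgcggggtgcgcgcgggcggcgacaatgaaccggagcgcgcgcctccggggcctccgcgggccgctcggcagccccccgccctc
Nr4a3, chr4:48045055-48045152, plus strand: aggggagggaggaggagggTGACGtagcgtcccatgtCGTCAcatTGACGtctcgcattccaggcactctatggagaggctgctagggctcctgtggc

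Each of the 3 promoter windows of 300 bases held 4 cores outside a full element; the fourth of Nr4a3 lies in its annotated first exon. Of all 32851 windows in the table, 19.5% held at least 1 such core and 33 windows (0.1%) held 4 or more, a number chosen after the members' counts were seen. The full palindrome TGACGTCA was in none of the 3 windows and in 1.79% of all windows. The NBRE, AAAGGTCA, was in none of them and in 1.51% of all. TATAAA was in 13.6% of all windows and, among the members, in that of Nr4a2 alone. There it lay on the strand opposite to the gene, at -164 from its start (TTTATA as printed). Every motif was searched on both strands. The windows were rich in G and C, at 72.3% for Nr4a1, 81.7% for Nr4a2 and 64.7% for Nr4a3. A match is a description of these letters, and no binding was measured.

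The genes lie on separate chromosomes of GRCm38: Nr4a1 (ENSMUSG00000023034) at chr15:101254269-101274795 on the plus strand, Nr4a2 (ENSMUSG00000026826) at chr2:57106830-57124003 on the minus strand, and Nr4a3 (ENSMUSG00000028341) at chr4:48045153-48086447 on the plus strand. No other annotated gene overlaps any of them on either strand in GENCODE vM21.

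Nr4a1, the member known as the fastest and strongest responder, rose after cue and after shock and cue in both regions and under both labels. In DH of 6J it ranged from 46.7 to 62.1 CPM (median 53.3) in the home cage, from 111 to 134 (median 127) after cue and from 97.7 to 143 (median 118) after shock and cue. In DH of 6NJ the same 3 ranges were 47 to 66.7 (median 53.4), 94 to 120 (median 110) and 89.1 to 111 (median 103). Every treated DH library lay above every home cage DH library of its label. In VH of 6J the home cage libraries ran from 38.6 to 53.8 CPM (median 46.9), those after cue from 70.8 to 93.1 (median 78.3), and those after shock and cue from 73.3 to 83.3 (median 78.6). In VH of 6NJ they ran from 41.4 to 51 (median 45.4), from 83.1 to 102 (median 95.3) and from 79 to 96.5 (median 80.7). Here too every treated library lay above every home cage library of its label.

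As log2 fold changes with their standard errors, the rise of Nr4a1 against home cage in DH was 1.23 ± 0.093 after cue and 1.165 ± 0.093 after shock and cue under 6J, or 2.35-fold after cue. Under 6NJ it was 0.98 ± 0.093 and 0.89 ± 0.093. In VH it was 0.78 ± 0.067 and 0.75 ± 0.067 under 6J, and 1.04 ± 0.067 and 0.84 ± 0.067 under 6NJ. The largest of the 8 adjusted p-values, each adjusted over all genes tested, was 8.43e-08. By p-value Nr4a1 stood between ranks 3 and 10 among the 19647 genes tested in DH or the 19597 in VH.

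**Figure D1:**
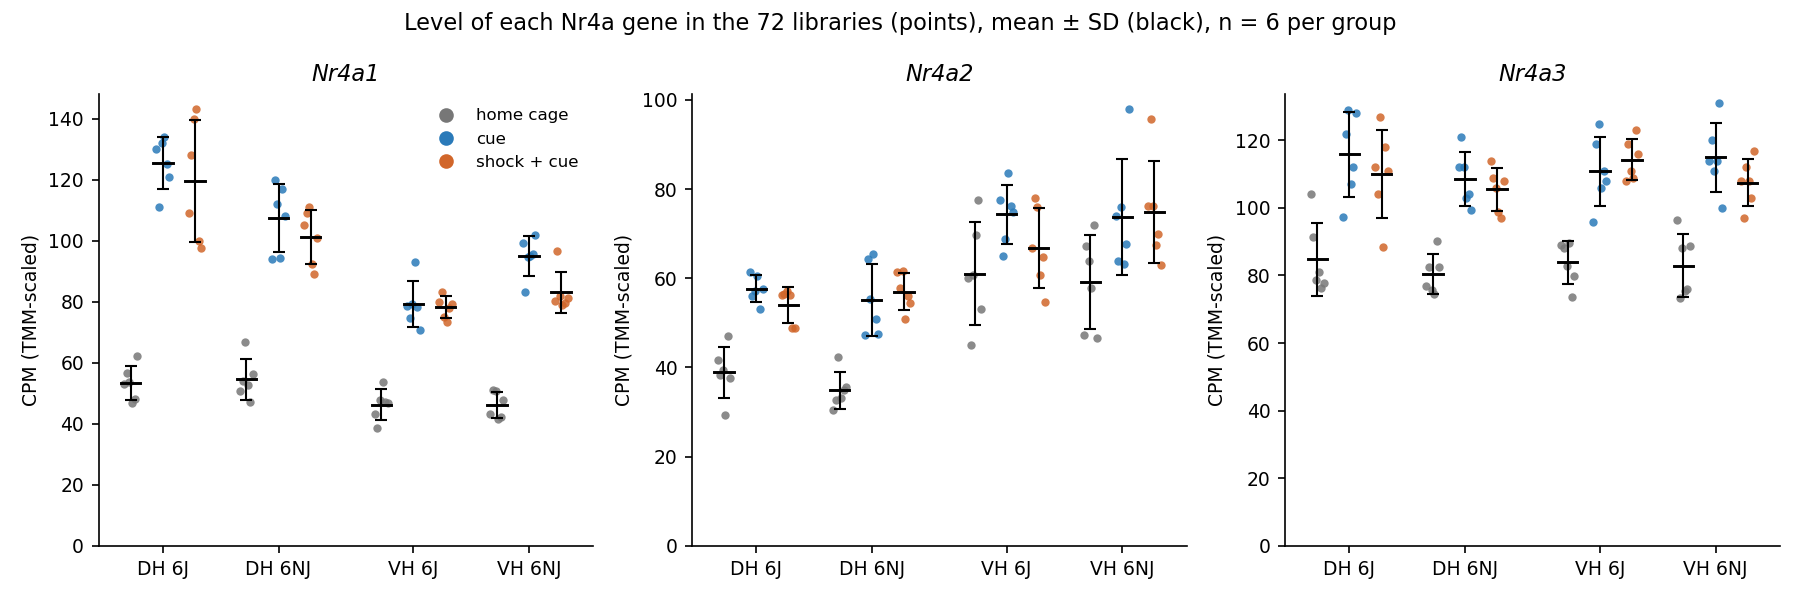
CPM of Nr4a1, Nr4a2 and Nr4a3 in each of the 72 libraries (points), by region and substrain label on the x axis and coloured by condition; black lines are the mean ± SD of 6 libraries. Treated Nr4a1 libraries (70.8 CPM and above) lie clear of home cage ones (66.7 CPM and below), whereas Nr4a2 libraries overlap in VH.

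Nr4a2, which is needed for midbrain dopamine neurons and in the forebrain marks subplate-derived and claustral neurons as well as active hippocampal ones, rose in DH. In DH of 6J it ranged from 29.4 to 47 CPM (median 38.8) in the home cage, from 53.2 to 61.4 (median 57.4) after cue and from 48.8 to 57.2 (median 56.3) after shock and cue. In DH of 6NJ it ranged from 30.4 to 42.3 (median 34), from 47.2 to 65.5 (median 53.1) and from 50.9 to 61.6 (median 56.8). Treated and home cage DH libraries of a label did not overlap. The log2 fold changes in DH were 0.57 ± 0.087 after cue (adjusted p 6.68e-05) and 0.47 ± 0.087 after shock and cue (adjusted p 0.0016) under 6J. Under 6NJ they were 0.66 ± 0.088 (adjusted p 8.19e-06) and 0.71 ± 0.087 (adjusted p 2.77e-06). Without the 6 codes with Lcn2 above 2 CPM, which leaves 2 cue libraries of 6J, the 6J cue value was 0.52 with an adjusted p of 0.19.

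In VH the libraries of Nr4a2 overlapped between conditions. They ran from 45.1 to 77.5 CPM (median 60.4) in the home cage, from 64.9 to 83.5 (median 75.6) after cue and from 54.6 to 77.9 (median 65.8) after shock and cue under 6J. Under 6NJ they ran from 46.6 to 71.9 (median 60.8), from 63.2 to 98 (median 70.8) and from 62.9 to 95.6 (median 73.1). The coefficient of variation of Nr4a2 among home cage libraries was 18.9% (6J) and 17.8% (6NJ) in VH, against 14.9% and 11.7% in DH. By edgeR none of the 4 VH comparisons by label passed the threshold of 0.05, whereas DESeq2 called both under 6NJ (0.32 after cue, adjusted p 0.0458, and 0.335 after shock and cue, adjusted p 0.0487). Their log2 values by edgeR were 0.29 ± 0.126 (cue, 6J, adjusted p 0.122), 0.13 ± 0.126 (shock and cue, 6J, adjusted p 0.608), 0.32 ± 0.126 (cue, 6NJ, adjusted p 0.0905) and 0.33 ± 0.126 (shock and cue, 6NJ, adjusted p 0.0966). Averaged over both labels, Nr4a2 rose in VH after cue by 0.30 ± 0.089 (adjusted p 0.00974), where 16.1% of genes tested rose. After shock and cue the mean was 0.23 ± 0.089 (adjusted p 0.0662). Without the codes with Lcn2 above 2 CPM the 6J values were 0.16 (cue) and 0.03 (shock and cue), the VH cue mean was 0.24 with an adjusted p of 0.161, and with DESeq2 the shock and cue mean had an adjusted p of 0.0332.

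Nr4a3, also called the neuron-derived orphan receptor, rose by 1.29- to 1.38-fold in all 8 comparisons with home cage. In DH of 6J it ranged from 76.3 to 104 CPM (median 79.8) in the home cage, from 97.4 to 129 (median 117) after cue and from 88.3 to 127 (median 111) after shock and cue. In DH of 6NJ the ranges were 74.6 to 90.2 (median 79.7), 99.4 to 121 (median 108) and 97 to 114 (median 107). The highest home cage library of DH 6J, at 104 CPM, lay within both treated ranges, and the next, at 91.4 CPM, within that of shock and cue. Both had Lcn2 above 2 CPM, and the other home cage libraries of DH 6J lay between 76.3 and 81 CPM. Without the codes with Lcn2 above 2 CPM the log2 fold changes in DH of 6J were 0.613 after cue and 0.483 after shock and cue. In VH of 6J the ranges were 73.7 to 89.7 (median 85.4), 95.8 to 125 (median 110) and 108 to 123 (median 114). In VH of 6NJ they were 73.2 to 96.3 (median 82.1), 100 to 131 (median 114) and 96.9 to 117 (median 108). In VH, as in DH of 6NJ, treated and home cage libraries did not overlap.

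The 8 log2 fold changes of Nr4a3 lay between 0.37 ± 0.066 (VH 6NJ, shock and cue) and 0.47 ± 0.066 (VH 6NJ, cue). All 8 passed, with adjusted p-values from 1.18e-05 (VH 6NJ, cue) to 0.00517 (DH 6J, shock and cue). The highest of these was 0.0587 when only the 2 groups compared were fitted. In bulk tissue a higher level may come from more cells with the message or from more message per cell, which cannot be told apart here.

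The members' counts stand beside the share of all genes tested that rose. All 3 rose in DH 6J after cue, where 3.81% of genes rose, and after shock and cue, where 1.28% rose. All 3 also rose in DH 6NJ after cue (1.75% of genes) and after shock and cue (2.30% of genes). In VH, by edgeR, 2 of 3 rose under 6J after cue (7.78% of genes) and after shock and cue (1.84% of genes), and 2 of 3 under 6NJ after cue (6.97% of genes) and after shock and cue (4.56% of genes). No member fell in any of these comparisons. How many of all genes tested had treated and home cage libraries without overlap was not counted. Cue and shock and cue share their home cage libraries, so their values are not independent.

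**Figure D2:**
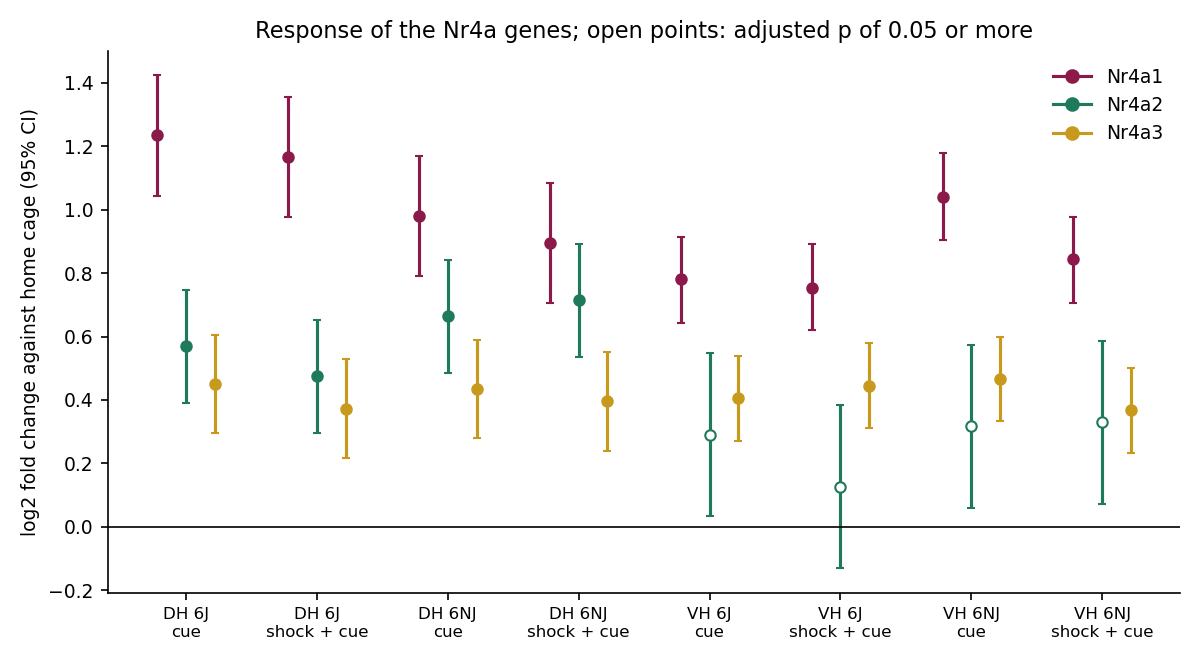
Log2 fold change of each Nr4a gene against home cage with its 95% confidence interval, for each region, substrain label and treatment on the x axis (6 libraries against 6). Filled points passed an adjusted p of 0.05 by edgeR; Nr4a1 is the highest in all 8 comparisons and the 4 open points are Nr4a2 in VH.

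No member passed the threshold when shock and cue was compared with cue. The difference of shock and cue minus cue, averaged over labels, was -0.08 (95% confidence interval -0.21 to 0.05) for Nr4a1, -0.02 (-0.15 to 0.10) for Nr4a2 and -0.06 (-0.17 to 0.05) for Nr4a3 in DH. In VH it was -0.11 (-0.21 to -0.02), -0.075 (-0.26 to 0.11) and -0.03 (-0.12 to 0.06). The lowest adjusted p among these 6 was 0.669, that of Nr4a1 in VH, whose unadjusted p was 0.0211. The value farthest from 0 by label was Nr4a1 in VH of 6NJ, at -0.20 ± 0.066 (p 0.00447, adjusted p 0.704), with 83.1 ± 6.68 CPM (SD, n = 6) after shock and cue and 94.9 ± 6.5 after cue. No gene passed in this comparison in either region by edgeR (0% called in the means over labels; 1997 genes in DH and 1426 in VH had an unadjusted p under 0.05), and DESeq2 called 3 genes in DH.

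The 6J and 6NJ labels were compared next, bearing in mind that Nnt and Gabra2 run against them. In the home cage no member passed between labels, and Nr4a1 differed by 0.03 ± 0.093 in DH and by -0.001 ± 0.067 in VH on the log2 scale (6NJ minus 6J). After cue Nr4a1 in DH was at 108 ± 11.2 CPM under 6NJ and 125 ± 8.5 under 6J (log2 -0.22, adjusted p 0.191), a difference that did not pass. In VH it was higher in those labelled 6NJ (94.9 ± 6.5 against 79.1 ± 7.57 CPM, log2 0.26, adjusted p 0.0276), where 0.822% of genes were higher. Averaged over the 3 conditions, Nr4a1 was higher in libraries labelled 6NJ in VH by 0.115 ± 0.038 (adjusted p 0.0475; 4.87% of genes were higher), and the DH value was -0.14 ± 0.053 (adjusted p 0.0693). The VH cue call was lost without the code 40A (adjusted p 0.0612) and without the codes with Lcn2 above 2 CPM (adjusted p 0.299), as was the VH mean (0.0617 and 0.166). Code 40A, a cue code of 6NJ, was not extreme in its root mean square deviation from the group means. That was 0.316 in DH and 0.26 in VH, within 0.232 to 0.391 over all libraries.

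Nr4a2 and Nr4a3 differed between labels by at most 0.161 on the log2 scale in any single region and condition, with no adjusted p below 0.524. The test of the difference itself, the response under 6NJ minus that under 6J, passed for no member. For Nr4a1 after cue it was -0.25 ± 0.13 in DH (p 0.0605) and 0.26 ± 0.094 in VH (p 0.00847), both with an adjusted p of 1. After shock and cue it was -0.27 ± 0.13 in DH (p 0.0454, adjusted p 1) and 0.09 ± 0.094 in VH. edgeR called no gene in these interactions of cue with label (0% called; 621 genes in DH and 539 in VH had an unadjusted p under 0.05), and neither did DESeq2. In those of shock and cue it called none either (860 genes in DH and 817 in VH had an unadjusted p under 0.05), and DESeq2 called 1 gene in VH.

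The members differed in how they split between the regions. Nr4a1 was higher in DH, with 93.6 ± 31.3 CPM (SD over 36 libraries of all conditions) against 71.2 ± 19.6 in VH, a mean log2 difference of 0.37 ± 0.033 (adjusted p 1.69e-15; 32.7% of genes were higher in DH). By pair of groups the difference was 0.66 ± 0.081 after cue and 0.61 ± 0.081 after shock and cue under 6J. Under 6NJ it was 0.18 ± 0.08 (adjusted p 0.0962) and 0.285 ± 0.081 (adjusted p 0.00427). In the home cage Nr4a1 was 53.3 ± 5.66 CPM in DH and 46.2 ± 5.05 in VH under 6J (log2 0.21, adjusted p 0.0447), and 54.6 ± 6.73 and 46 ± 4.29 under 6NJ (log2 0.245, adjusted p 0.016). The share of all genes higher in DH in the 5 pairs that passed was 17.3% (home cage), 16.5% (cue) and 13.1% (shock and cue) under 6J, and 17.2% (home cage) and 13.9% (shock and cue) under 6NJ. The 6J home cage value had an exact permutation p of 0.0519, and without the codes with Lcn2 above 2 CPM it was 0.11 with an adjusted p of 0.47.

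Nr4a2 ran the other way and was lower in DH than in VH in all 6 pairs of groups. Its mean over all libraries was 49.6 ± 10.4 CPM in DH and 68.3 ± 11.7 in VH, a log2 difference of -0.48 ± 0.045 (adjusted p 7.2e-15; 30.9% of genes were lower in DH). The home cage held the widest gap, -0.65 ± 0.111 under 6J and -0.76 ± 0.112 under 6NJ. The share of all genes lower in DH was 16.5%, 15.6% and 13.1% under 6J in the home cage, after cue and after shock and cue, and 16.9%, 11.9% and 14.5% under 6NJ. After treatment the gap lay between -0.31 ± 0.11 and -0.42 ± 0.109. The value after cue under 6J, -0.37, became -0.39 with an adjusted p of 0.273 without the codes with Lcn2 above 2 CPM. The value after shock and cue under 6J, -0.31, was -0.305 with an adjusted p of 0.0695 when no filter on low counts was used.

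Nr4a3 did not pass between regions, at 101 ± 16.3 CPM in DH and 102 ± 15.9 in VH (log2 -0.02, 95% confidence interval -0.08 to 0.04, adjusted p 0.557). Among the markers set beside these values, the summed level of 5 dentate granule cell markers had a median of 408 CPM in DH and 287 in VH; 4 of the 5 were higher in DH, and Calb1 was lower by 0.15 on the log2 scale. That of 4 oligodendrocyte markers was 6870 in DH and 3880 in VH, and that of 4 choroid plexus markers 564 (38.3 to 8650) in DH and 47 (22.8 to 2300) in VH. Interneuron markers stood at 563 in DH and 658 in VH, and subiculum markers at 108 and 129. That of 5 claustrum and layer 6b markers was 75.6 (60.5 to 91.4) in DH and 91.1 (74.5 to 118) in VH. Within that last list 3 of 5 were lower in DH, Cplx3 by 1.33, Ccn2 by 1.29 and Moxd1 by 0.35 on the log2 scale. Gnb4 was at 0.06 (adjusted p 0.0886) and Lxn at -0.07 (adjusted p 0.0517) in the same comparison. The part of these cell types in the Nr4a differences was not tested.

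Whether the responses themselves differed between regions was tested as the response in DH minus that in VH, averaged over labels. For Nr4a2 it was 0.31 ± 0.11 after cue (p 0.00614, adjusted p 0.774) and 0.36 ± 0.11 after shock and cue (p 0.00188, adjusted p 0.301). For Nr4a1 it was 0.20 ± 0.082 (p 0.019, adjusted p 0.774) and 0.22 ± 0.082 (p 0.00794, adjusted p 0.383), and for Nr4a3 it was 0.005 ± 0.073 and -0.03 ± 0.073. Nothing passed over the whole table by edgeR (0% called; 1296 genes after cue and 2104 after shock and cue had an unadjusted p under 0.05) or by DESeq2. With a block by code, since DH and VH share codes, 14 genes passed after shock and cue and none after cue; Nr4a2 had adjusted p-values of 0.389 after cue and 0.149 after shock and cue, and Nr4a1 of 0.432 and 0.223. Thus the rise of Nr4a2 in DH and its smaller values in VH were not shown to differ.

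Ordered by level within each gene, Nr4a1 was highest in DH of 6J after cue (125 ± 8.5 CPM) and after shock and cue (120 ± 20.1), which differed by less than their spread, and then in DH of 6NJ after cue (108 ± 11.2) and after shock and cue (101 ± 8.84). VH of 6NJ after cue (94.9 ± 6.5) led the VH groups, and the 3 others treated lay between 78.1 ± 3.55 and 83.1 ± 6.68. All 4 home cage groups came last, from 46 ± 4.29 to 54.6 ± 6.73. Nr4a2 had all 6 VH groups above all 6 DH groups by mean, from 74.7 ± 11.4 CPM in VH of 6NJ after shock and cue down to 34.8 ± 4.08 in DH of 6NJ in the home cage. The VH home cage groups (61 ± 11.5 and 59.1 ± 10.5) were within the spread of the highest DH group (57.6 ± 2.98). Nr4a3 fell into 2 bands, 8 treated groups from 105 ± 6.45 to 116 ± 12.5 CPM and 4 home cage groups from 80.4 ± 5.91 to 84.9 ± 11, and neighbours within a band did not differ beyond their spread.

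Per kilobase of exon the order of the members differed between regions and conditions. The union of exons is 3509 bases for Nr4a1, 4059 for Nr4a2 and 5987 for Nr4a3. In the home cage of DH the levels were 15.4 ± 1.7 CPM per kilobase for Nr4a1, 9.08 ± 1.29 for Nr4a2 and 13.8 ± 1.46 for Nr4a3 (SD, 12 libraries of both labels). After cue they were 33.2 ± 3.76, 13.9 ± 1.47 and 18.7 ± 1.78. In VH the home cage levels were 13.1 ± 1.27, 14.8 ± 2.6 and 13.9 ± 1.27, within each other's spread, and after cue 24.8 ± 3.04, 18.2 ± 2.42 and 18.8 ± 1.67. Thus Nr4a1 stood above the others per length in every treated group mean of both regions.

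The transcript table divides each gene's reads among annotated forms by estimation, since forms share most of their sequence. Summed over transcripts the estimates came to 97.1% to 101% of the gene's counts. Of the 14 transcripts, 10 passed the filter on low counts in both regions. For Nr4a1 the main form was Nr4a1-201, with 7 exons and its start at chr15:101266846, just after the printed promoter. The other form of weight, Nr4a1-202, has 8 exons and starts upstream at chr15:101254269.

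Nr4a1-201 rose with the gene. In DH of 6J it went from 32.8 ± 4.21 CPM in the home cage to 102 ± 3.9 after cue and 97.2 ± 18 after shock and cue. In VH of 6NJ it went from 23.5 ± 3.42 to 72.5 ± 5.99 and 64.3 ± 8.35. Averaged over labels its log2 fold change was 1.515 ± 0.071 after cue and 1.404 ± 0.071 after shock and cue in DH, and 1.39 ± 0.077 and 1.31 ± 0.077 in VH, with adjusted p-values of 1.23e-13 or less. These are above the values for the whole gene in the same comparisons (1.11, 1.03, 0.91 and 0.80).

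Nr4a1-202 passed in none of these comparisons by edgeR, and DESeq2 called it lower in VH after shock and cue (-0.44, adjusted p 0.047). It was at 14.7 ± 2.16 CPM in the home cage of DH 6J, 11.2 ± 6.33 after cue and 10.6 ± 2.66 after shock and cue. Its mean log2 changes were negative, -0.445 ± 0.191 and -0.26 ± 0.19 in DH and -0.37 ± 0.149 and -0.44 ± 0.149 in VH, with adjusted p-values of 0.0855 to 0.629. Its share of the gene's estimated counts was smaller after treatment. In DH of 6J the share was 29.7% in the home cage, 9.45% after cue and 9.66% after shock and cue, and in VH of 6NJ it was 39.9%, 15.5% and 15.5%. A share also becomes smaller when another form of the gene rises. In DH of 6NJ after shock and cue the share was 15.7% against 29.8% in the home cage, while Nr4a1-202 stood at 14.9 ± 2.82 CPM against 15.2 ± 3.29. In the other treated groups the mean of Nr4a1-202 was further below its home cage mean, at 10.4 to 13.7 CPM against 13.8 to 17.2. How much each form contributed to the smaller share was not tested.

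**Figure D3:**
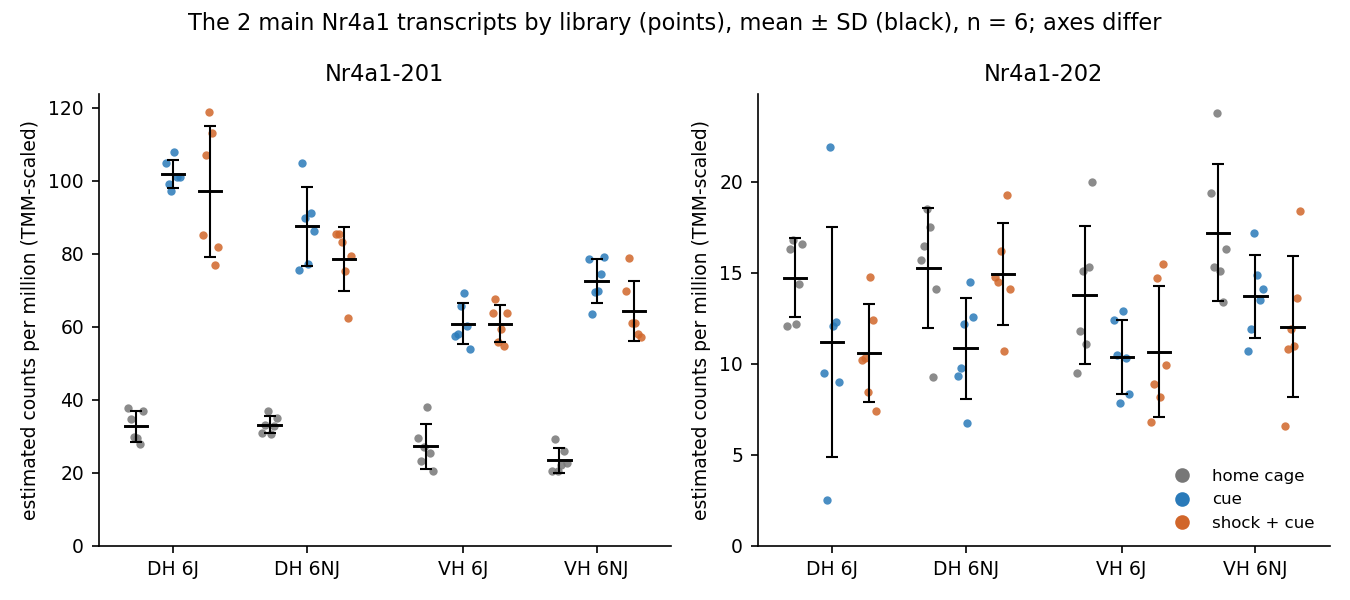
CPM of estimated counts of Nr4a1-201 (left) and Nr4a1-202 (right) in each library (points), by region, substrain label and condition, with the mean ± SD of 6 libraries in black; the y axes differ. Nr4a1-201 is higher in every treated group, such as 102 against 32.8 in DH of 6J after cue, while Nr4a1-202 lies between 2.51 and 23.8 throughout.

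For Nr4a2 the form Nr4a2-203, which starts at the printed promoter, held 78% of the estimated counts on average. It rose in DH by 0.62 ± 0.083 after cue (adjusted p 1.35e-05) and by 0.63 ± 0.083 after shock and cue (adjusted p 1.47e-05). In VH its values were 0.25 ± 0.094 (adjusted p 0.0682) and 0.23 ± 0.094 (adjusted p 0.179) by edgeR, and DESeq2 called the first (0.26, adjusted p 0.0424). The form Nr4a2-201, which starts inside the gene, rose in VH after cue by 0.72 ± 0.225 (adjusted p 0.0311) from 5.24 ± 1.73 to 8.94 ± 2.65 CPM under 6J and from 6.11 ± 2.67 to 9.73 ± 3.22 under 6NJ. A short form without a coding region, Nr4a2-205, rose in DH by 1.32 ± 0.281 after cue (adjusted p 0.00477) at a mean level of 0.687 CPM.

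For Nr4a3 the 2 long coding forms shared the counts, 67.3% for Nr4a3-203 and 32.7% for Nr4a3-201 on average. The form Nr4a3-203 starts inside the gene at chr4:48049114, and Nr4a3-201 starts at chr4:48045153, just after the printed stretch. In DH after cue they rose by 0.43 ± 0.078 and 0.43 ± 0.094. In VH after cue Nr4a3-201 rose by 0.84 ± 0.117 (adjusted p 1.94e-05), and Nr4a3-203 was at 0.23 ± 0.08 (adjusted p 0.0541 by edgeR, 0.0366 by DESeq2). The share of Nr4a3-201 in VH of 6J went from 23.6% in the home cage to 36% after cue (exact two-sided permutation p 0.00433, adjusted 0.0077), and in VH of 6NJ from 29.4% to 34.6% (exact p 0.238). After shock and cue it was 28.5% under 6J (exact p 0.145) and 34.5% under 6NJ (exact p 0.264), so 1 of the 8 tests of this share passed. The adjustment runs over 16 tests of transcript shares, which were chosen after the shares were seen. The other 8 were those of the Nr4a1-202 share, with exact permutation p of 0.00216 or 0.00433, and all of them passed. The adjusted value of 0.0077 depends on these small p-values in the same set. In DH the group means lay between 30.8% and 35.4%, and none of the 4 exact tests there passed.

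In the transcript fits of the means over labels, where 2.18% of transcripts rose in DH after cue and 1.65% after shock and cue, 5 and 4 of the 10 tested Nr4a transcripts rose. In VH, where 6.54% and 2.37% rose, 3 of them rose after each treatment. These counts are by edgeR. DESeq2, run for 5 of the forms, also called Nr4a2-203 and Nr4a3-203 in VH after cue and Nr4a3-201 in DH after shock and cue (0.30, adjusted p 0.0412). Nr4a1-203, Nr4a1-204 and Nr4a2-206 passed in none of the 4 by edgeR, and Nr4a2-202, Nr4a2-204, Nr4a3-202 and Nr4a3-204 did not pass the filter on low counts. edgeR called no transcript of these genes lower in these 4 comparisons.

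Other immediate early genes, listed with earlier results of these data known, were measured in the same libraries. Of 18 such genes, 17 rose in the mean over labels in each region after each treatment and none fell; 7.45% (cue) and 5.52% (shock and cue) of genes rose in DH, and 16.1% and 9.84% in VH. Their median log2 change was 0.81 (cue) and 0.80 (shock and cue) in DH and 0.78 and 0.74 in VH, beside -0.003, 0.001, -0.007 and -0.005 over all genes. The 4 with the smallest p-values in each comparison were Egr2, Arc, Fosb and Junb, which in DH after cue rose by 3.12 ± 0.159, 1.72 ± 0.086, 1.516 ± 0.095 and 1.002 ± 0.066. Egr2, Fosb and Junb encode transcription factors, and Arc a synaptic protein. By edgeR Jun did not pass in DH (0.12 ± 0.064 and 0.08 ± 0.064) and Npas4 did not in VH (0.245 ± 0.101 and 0.16 ± 0.102), 2 genes named after their values were seen; DESeq2 called Npas4 in VH after cue (adjusted p 0.0391). In DH after cue Nr4a1 (1.11) lay above the median of the list (0.81), whereas Nr4a2 (0.62) and Nr4a3 (0.44) lay below it. Without the codes with Lcn2 above 2 CPM, 15 to 17 of the 18 rose.

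**Figure D4:**
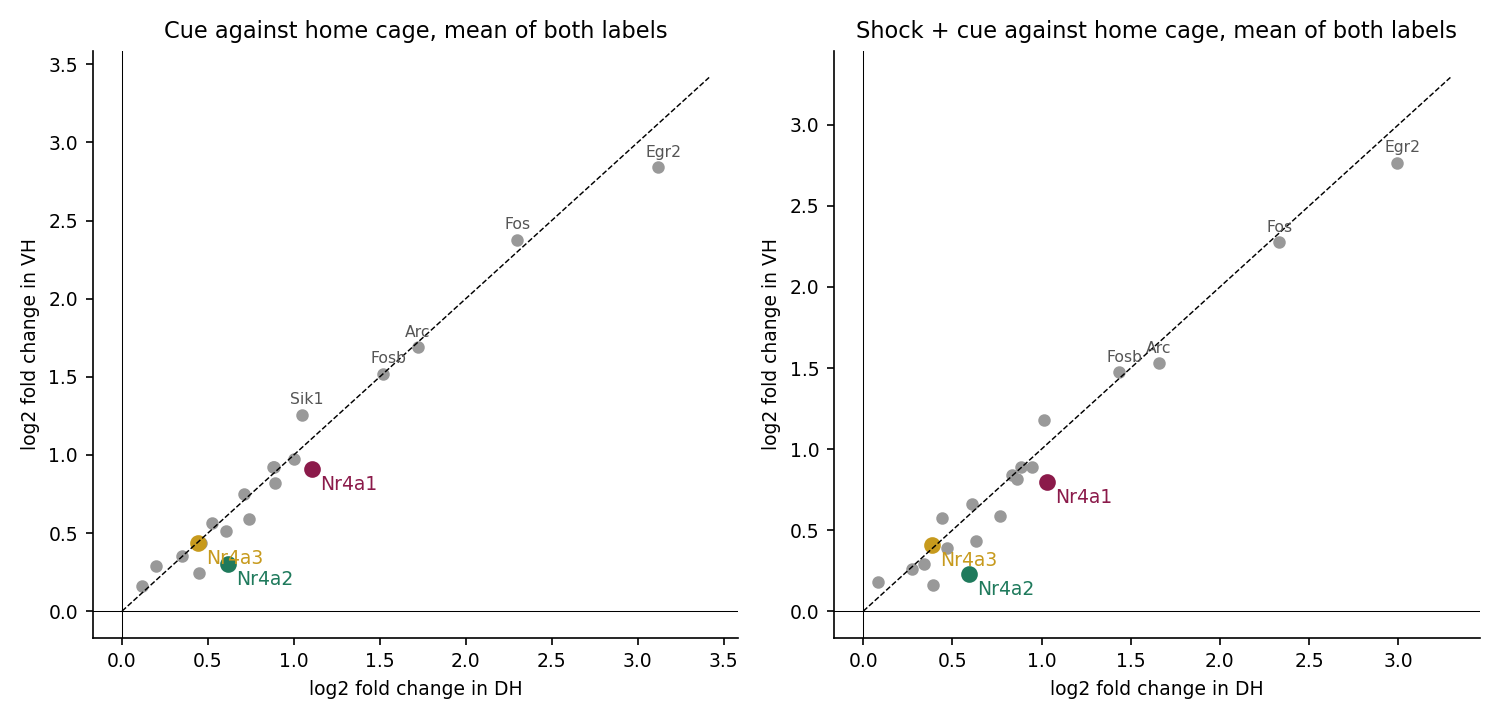
Log2 fold change against home cage in DH (x axis) and VH (y axis), mean of both labels, after cue (left) and shock and cue (right), for 18 other immediate early genes (grey, the larger ones named) and the Nr4a genes (coloured); the dashed line marks equal change. Nr4a2 lies below the line (0.62 in DH and 0.30 in VH after cue), Nr4a1 also (1.11 and 0.91), and Nr4a3 close to it (0.44 and 0.44).

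Some genes followed the members closely across libraries. Over the 36 DH libraries the 5 genes with the highest Pearson correlation of log2 CPM with Nr4a1 were Arc (0.984), Junb (0.972), Egr2 (0.969), Egr1 (0.96) and Fos (0.954), and over the 36 VH libraries Junb, Arc, Egr1, Fos and Dusp1 (0.975 to 0.953). For Nr4a2 they were Fos (0.909), 1700016P03Rik, Fosb, Zglp1 and Egr2 in DH. In VH they were Gm36931 (0.802), Cbln4 (0.758), Esrrg (0.746), Oxr1 (0.73) and Cdc42ep3 (0.728). For Nr4a3 they were Midn (0.866), Spry4, Egr4, Crkl and Egr2 in DH, and Homer1 (0.89), Egr2, Errfi1, Dusp5 and Dusp6 in VH. These values describe all libraries of a region, include the difference between treated and home cage groups, and carry no test.

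With the group means taken out, the 3 members were compared with each other over the 36 libraries of a region, and each with itself between regions by code, as 9 relations with permutations within groups. Nr4a1 and Nr4a2 deviated together in VH (Pearson r 0.536, permutation p 0.0032, adjusted 0.0145; Spearman rho 0.467, p 0.01, adjusted 0.0313). In DH r was 0.418 (permutation p 0.017, adjusted 0.0512) and rho 0.461 (p 0.0096, adjusted 0.0313). Nr4a2 and Nr4a3 deviated in opposite directions in VH (r -0.589, permutation p 0.00082, adjusted 0.00738; rho -0.55, p 0.0024, adjusted 0.0214) with r 0.043 in DH (permutation p 0.82). Without the 2 libraries farthest from the median, r was 0.449, 0.312 and -0.542 for the 3 relations named first. The other 6 relations had adjusted permutation p-values of 0.125 or more for r.

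Genes of the pathway above and beside the members were read from lists, which were chosen with earlier results of these data known. Among 18 genes that act upstream (CREB family, its coactivators, MEF2 factors, Srf and Elk1, kinases and histone deacetylases), 5 rose and 1 fell in DH after cue, and 3 rose and none fell after shock and cue. Creb1, which encodes the factor known to bind cAMP response elements, rose by 0.12 ± 0.031 and 0.11 ± 0.031, and Atf1, its relative, by 0.18 ± 0.039 in both. In VH 6 rose and 4 fell after cue, and 3 rose and 4 fell after shock and cue. There Creb1 rose by 0.225 ± 0.033 and 0.17 ± 0.033, Ep300, a histone acetyltransferase, by 0.18 ± 0.043 and 0.12 ± 0.043, and Hdac3, a histone deacetylase known to restrain Nr4a2 in hippocampus, fell by 0.13 and 0.10. The coactivator Crebbp also fell in VH, at -0.098 after cue and -0.096 after shock and cue. So did Hdac5 (-0.102) and the kinase Prkaca (-0.073) after cue, and the kinase Camk2a (-0.134) after shock and cue. Hdac4, another histone deacetylase, rose in VH after cue (0.144), a gene named after its value was seen. In DH 7.45% (cue) and 5.52% (shock and cue) of all genes rose and 5.57% and 4.49% fell, and in VH 16.1% and 9.84% rose and 15.4% and 10.8% fell. The medians of the list lay between -0.023 and 0.01, beside -0.007 to 0.001 over all genes. Without the codes with Lcn2 above 2 CPM none of the 18 passed in DH after cue by edgeR, and in VH after cue 3 rose and none fell.

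Dimer partners and orphan receptors were read in the same way. In VH after cue 3 of 12 partners and coregulators rose and 1 fell, and 0 of 15 orphan receptors tested rose and 3 fell. Over all genes 16.1% rose and 15.4% fell there, and these small counts were not tested against those shares. None of the 12 partners passed in DH by edgeR. DESeq2 called Ncoa1, a coactivator, lower there after shock and cue (-0.097, adjusted p 0.034), and without the code 40A Rcor1 passed after cue (0.135, adjusted p 0.0462). In VH after cue Rcor1, a corepressor of the CoREST complex, rose by 0.16 ± 0.039, Ncor1, a corepressor, by 0.115 ± 0.037 and Ncoa2, a coactivator, by 0.099 ± 0.038, and Rxrb, a retinoid X receptor, fell by 0.12. Rxrb also fell by 0.12 after shock and cue. Without the codes with Lcn2 above 2 CPM Rcor1 alone passed in VH, after both treatments, and Rxrb was at -0.115 (adjusted p 0.0814) and -0.10 (adjusted p 0.0538); without the code 40A Ncoa2 was at 0.093 (adjusted p 0.0675). The 15 orphan receptors were those of 17 that passed the filter; 1 fell in DH after cue (5.57% of genes), 1 rose and 2 fell in DH after shock and cue (5.52% and 4.49%), and 2 fell in VH after shock and cue (10.8%). Among them Nr1d1 (Rev-erb alpha, a repressor of the clock) fell in all 4 mean comparisons by 0.19 to 0.31, and Nr6a1 (germ cell nuclear factor) fell in 3 of 4 by 0.27 to 0.43. In DH after cue Nr1d1 was at -0.26 (adjusted p 0.105) without the codes with Lcn2 above 2 CPM, and Nr6a1, at -0.17, was called by DESeq2 (adjusted p 0.0489) and without the code 40A (-0.20, adjusted p 0.0315). Rorb, a receptor of the same clock elements as Nr1d1, rose in DH after shock and cue by 0.19 ± 0.06 and fell in VH after cue by 0.15.

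Genes that the NR4A proteins are known to drive elsewhere, 9 in all with Th and Slc6a3 of dopamine neurons and Star of steroid-making cells among them, did not pass after cue in the mean over labels in either region by edgeR. Pomc, the hormone precursor of pituitary and hypothalamus, rose after shock and cue, in DH by 2.12 ± 0.565 and in VH by 1.46 ± 0.46 (adjusted p 0.0142 and 0.0246, in that order). Its group means were low. In DH they were 1.13 CPM in the home cage, 6.86 after cue and 6.22 after shock and cue under 6J, and 0.981, 1.31 and 3.39 under 6NJ. In VH they were 1.21, 2.4 and 4.86, and 1.22, 1.67 and 2.28. The DH mean of Pomc after cue was 1.51 (adjusted p 0.0825 by edgeR, 0.02 by DESeq2), and under 6J alone it was 2.61 (adjusted p 0.0462 by edgeR). The VH value after shock and cue was 1.41 (adjusted p 0.059) without the codes with Lcn2 above 2 CPM. The 8 others did not pass in these comparisons by edgeR, and 1 of 9 after shock and cue stands beside 5.52% of all genes in DH and 9.84% in VH. Vip, a neuropeptide gene, was at 0.34 in DH after shock and cue (adjusted p 0.0508) and passed by DESeq2 (0.0237) and without the code 40A (0.0385). Slc18a2, the vesicular monoamine transporter, passed in VH after cue without the codes with Lcn2 above 2 CPM (0.64, adjusted p 0.0244).

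A list held 17 genes reported to depend on NR4A in hippocampus, most of them endoplasmic reticulum chaperones and their helpers. It was chosen with earlier results of these data known, whereas the shares of all genes beside its counts are not so chosen. In DH 16 of 17 rose after cue and 4 after shock and cue, in VH 16 and 11, and none fell, where 7.45%, 5.52%, 16.1% and 9.84% of all genes rose. The medians were 0.32 and 0.27 in DH and 0.23 and 0.20 in VH. Hspa5 (BiP), the main chaperone of that compartment, rose in DH by 0.64 ± 0.143 after cue and 0.48 ± 0.143 after shock and cue, and in VH by 0.55 ± 0.11 and 0.485 ± 0.11. Hsp90b1, its partner of the HSP90 family, rose by 0.37 ± 0.082, 0.27 ± 0.082, 0.315 ± 0.058 and 0.27 ± 0.058. Fosl2, an AP-1 factor that also stands in the list of immediate early genes, rose by 0.60 ± 0.072, 0.63 ± 0.072, 0.52 ± 0.06 and 0.435 ± 0.061. Pdia6, a protein disulfide isomerase of the same compartment, rose by 0.40 ± 0.095, 0.365 ± 0.095, 0.30 ± 0.071 and 0.27 ± 0.071. These means hide an order that differed by label. Hspa5 in DH averaged 170 CPM (home cage), 297 (cue) and 206 (shock and cue) under 6J, but 155, 213 and 247 under 6NJ. Hsp90b1 and Pdia6 had the same orders in both regions, whereas Dnajb9 and Bdnf in DH of 6NJ were higher after cue. edgeR called 0 genes in the difference between labels of shock and cue minus cue.

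The counts of list members that rose moved with the 6 codes with Lcn2 above 2 CPM. Without them 1 of 17 passed in DH after cue and 6 in VH after cue, with medians of 0.16 and 0.15, while 11 passed in DH and 15 in VH after shock and cue, with medians of 0.27 and 0.21. The shares of all genes that rose were then 1.8% and 7.3% after cue and 4.24% and 8.21% after shock and cue. With DESeq2 the 4 counts were 16, 6, 16 and 13. In VH after cue the microglia markers P2ry12, Csf1r and Tmem119 also rose, by 0.40, 0.34 and 0.23, while Cx3cr1 was at 0.21 (adjusted p 0.114), and none of these 4 passed in the other 3 comparisons by edgeR. Their part in the counts, and that of the lower mitochondrial share of treated VH libraries by median, was not tested.

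**Figure D5:**
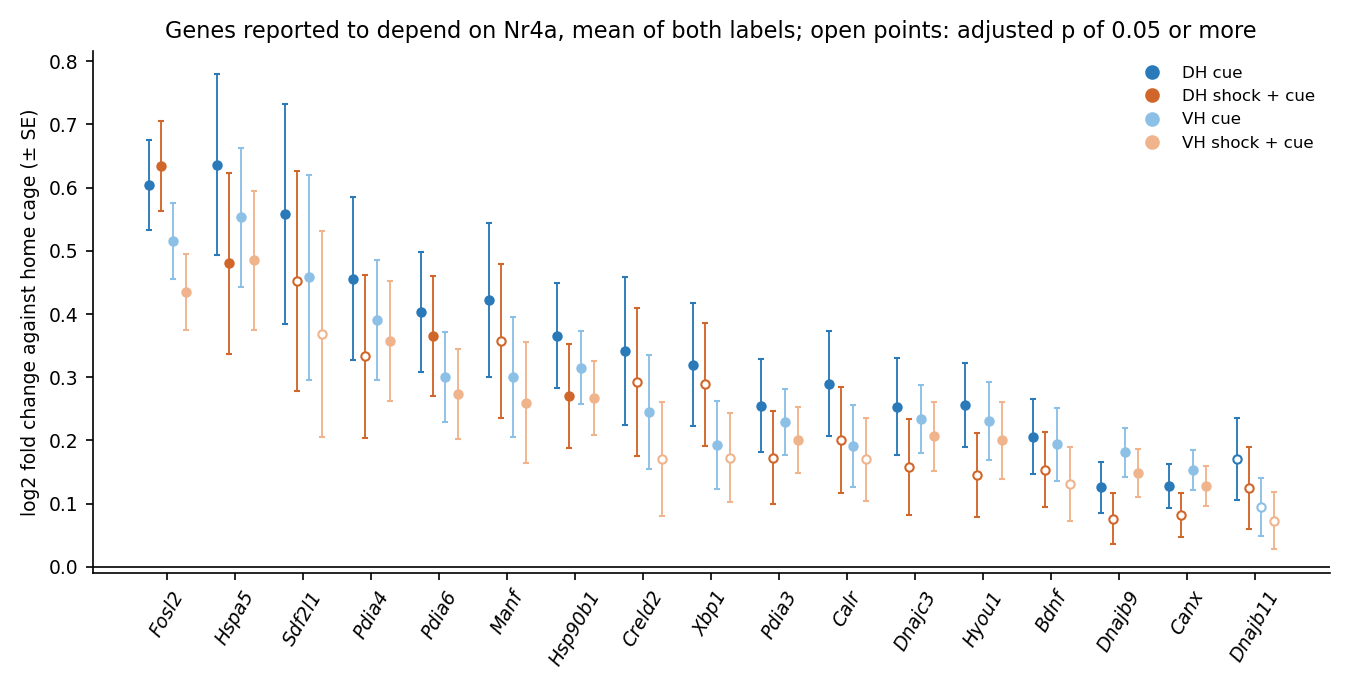
Log2 fold change against home cage ± SE, mean of both labels, of 17 genes reported to depend on NR4A in hippocampus, for cue and for shock and cue in DH and VH (colours). Filled points passed an adjusted p of 0.05; all 17 genes lie above 0 in all 4 comparisons, from 0.07 to 0.64.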

How the data were processed

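Poly(A) RNA from 72 libraries (12 groups of 6) was sequenced as 75-base single-end stranded reads, per the labels' protocols. The submitters' processing notes name FastQC, HISAT2, featureCounts, kallisto, DESeq2 and GRCm38; their versions are not stated there. The authors deposited raw read counts per gene, and estimated counts per transcript that were rounded here.

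Genes were filtered by group with filterByExpr and tested with edgeR 4.0.16 (R 4.3.3; TMM, quasi-likelihood F-test, robust) over the 36 libraries of a region, or all 72 between regions, with Benjamini-Hochberg adjustment over all genes tested in each comparison and a threshold of 0.05. Transcripts were tested the same way. The script was tested on simulated data. CPM used TMM factors over all libraries, and log2 CPM a prior count of 2. The 3 genes had 123 tests in all. The common biological coefficient of variation was 0.111 in DH and 0.0933 in VH. Library totals of 30330382 to 56258370 counts leave counting error small for these genes. Of 55401 gene IDs, 55141 had a symbol in the reference table. All 180 pairs of libraries within groups differed by more than sampling noise (lowest chi-square per degree of freedom 4.51). Named genes were the members, their transcripts, up to 4 list members per direction with the smallest p among those called, and the 5 genes most correlated with each member. The members and lists were chosen with earlier results of these data known. Alternatives were DESeq2 1.42.0, RLE factors, limma-voom (limma 3.58.1), other filters, exact tests, a block by code and leaving out libraries; those on list counts and the tests of transcript shares were added after the data were seen. A marker gene of the microglia list is not reported here.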

Additional observations from a re-analysis of the deposited data

Results flagged for a closer look

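In VH of 6NJ after shock and cue, the highest Nr4a1 library (code 37B, 96.5 CPM) stood apart from the other 5, of which the next was at 82 CPM. On the log2 CPM scale its gap of 0.812 of the group's range was above the critical value of 0.625 for 6 samples. It was the 1 such library in 36 groups of 6 checked over the 3 genes on that scale. Chance alone flags about 1 in 20 groups, so 1 in 36 is no more than chance gives. On the CPM scale, tried after the data were seen, its ratio was 0.829, and a second library passed, Nr4a2 in VH of 6NJ after cue (code 40C, 98 CPM, the next at 76 CPM, ratio 0.632).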

How the results depend on the processing

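When the values of the 3 genes were recomputed under the other settings, 998 kept their side of the threshold, 14 lost a call and 11 gained one. Of the values called with the settings used above, 0 reversed their direction. A change of direction in values that were not called was not counted. The cause of the lost and gained calls was not tested. Nr4a1 kept all 8 calls against home cage, and so did Nr4a3 except that its DH 6J value after shock and cue was 0.374 (adjusted p 0.0587) with only the compared groups fitted. Without the 6 codes with Lcn2 above 2 CPM, 6 calls were lost: Nr4a2 against home cage after cue in DH of 6J (0.521, adjusted p 0.19) and in the VH mean (0.238, 0.161), Nr4a2 between regions after cue under 6J (-0.393, 0.273), Nr4a1 between regions in the home cage of 6J (0.106, 0.47), and Nr4a1 between labels in VH after cue (0.269, 0.299) and in the VH mean (0.092, 0.166). Fewer libraries remained there. Without the code 40A the last 3 became 0.198 (0.0579), 0.26 (0.0612) and 0.115 (0.0617). With no filter on low counts the first and the last of these 3 became 0.207 (0.0966) and 0.118 (0.0765), and Nr4a2 between regions after shock and cue under 6J became -0.305 (0.0695). DESeq2 called Nr4a2 in VH of 6NJ after cue (0.32, adjusted p 0.0458) and after shock and cue (0.335, 0.0487) and in the VH mean after shock and cue (0.232, 0.0332), and Nr4a1 between labels in the DH mean (-0.142, 0.0441). limma-voom, in which code numbers entered as random effects, gave 0.237 (adjusted p 0.0437) for that Nr4a2 mean, and a minimum mean CPM of 1 gave -0.146 (0.048) for that Nr4a1 mean. The exact permutation test, with p unadjusted, gave 0.208 (p 0.0519) for Nr4a1 between regions in the home cage of 6J. It passed Nr4a1 between regions after cue under 6NJ (0.177, p 0.0498), between labels after cue in DH (-0.222, p 0.0152) and between shock and cue and cue in VH of 6NJ (-0.193, p 0.0152). It passed Nr4a2 in VH of 6J after cue (0.302, p 0.0346) and of 6NJ after shock and cue (0.345, p 0.0325).

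Counts of all genes called moved more. Without the codes with Lcn2 above 2 CPM the counts after cue against home cage were 31 in DH of 6J (1157 with all codes), 509 in the DH mean (2558), 47 in VH of 6J (2518) and 2494 in the VH mean (6171). After shock and cue they were 178 in DH of 6J (345) and 331 in VH of 6J (610). Between labels they were 104 in the DH home cage (183), 37 in DH after cue (535), 1586 in the DH mean (2888), 32 in VH after cue (344) and 1289 in the VH mean (1945), and between regions after cue under 6J 1348 (6492). Without the code 40A the VH label count after cue was 175. With only the groups compared the counts against home cage were 515 and 217 in DH of 6J after cue and after shock and cue, 268 in DH of 6NJ after cue, 893 and 863 in VH of 6NJ, and 355 in VH of 6J after shock and cue. Between labels they were 108, 175 and 257 in DH (home cage, cue, shock and cue) and 59 in the VH home cage. With no filter on low counts the counts against home cage were 734 and 205 in DH of 6J, 286 and 385 in DH of 6NJ, 1542 and 360 in VH of 6J, and 1484 and 1036 in VH of 6NJ. Between labels they were 313 and 254 in DH after cue and after shock and cue, 171 in the VH home cage and 208 in VH after cue, and 1 gene was called between shock and cue and cue in DH of 6J. DESeq2 called 931 genes in VH of 6J after shock and cue, 303 and 679 between labels in DH (home cage, shock and cue), 602 between labels in VH after cue, 3 between shock and cue and cue in DH of 6J and in the DH mean, 1 in VH of 6J, and 1 in each of 2 interactions with label (DH for shock and cue against cue, VH for shock and cue against home cage).

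Codes are shared by DH and VH, so a replicate block by code was fitted for the region comparisons: all 27 values of the 3 genes kept their side, and 14 genes were called in the difference of the shock and cue responses between regions (0 without the block). Of 36 code pairs, 25 had a correlation of their deviations from the group means above 0.1 (range -0.26 to 0.515), and 17 correlated best with their own code, a hint from the data and not from the design. Each code number belongs to 1 label and 1 condition, with 2 numbers in a group; the consensus correlation of libraries that share a number within a group was -0.0357 in DH and -0.0301 in VH. Estimated counts limit the transcript values, since forms share most of their sequence.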
